A study of Mus musculus with 30 samples.

Results

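The genes described here encode the collagen chains and laminin chains of the extracellular matrix, measured in lymph node and spleen of Tg26 mice with lymphoma, Tg26 mice without symptoms and FVB/N control mice. A member was any gene whose symbol in the array annotation has the form Col, a number, a and a number, or Lama, Lamb or Lamc and a number, with a probe set that names only that gene. Where a gene had several such probe sets, the one with the highest mean level was used. This rule, which used no difference between groups, gave 54 of the 19938 genes measured: 11 fibrillar collagens, 9 basement membrane and anchoring collagens, 10 laminin chains and 24 other collagens.

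Tg26 mice carry the HIV-1 provirus pNL4-3 with part of gag-pol removed, so that no infectious virus is made. All Tg26 mice were heterozygous, on the FVB/N background and from a colony bred from heterozygotes with skin lesions. They were killed at 5 to 12 months of age, and the same range is recorded for the FVB/N mice. Total RNA of whole lymph node and whole spleen was hybridised to Affymetrix Mouse Gene ST arrays, 1 array for each tissue of each mouse: 6 Tg26 mice with lymphoma, 6 asymptomatic Tg26 mice and 3 FVB/N mice, or 30 arrays from 15 mice. Mice 1 to 3 of every state form batch A of the labels and mice 4 to 6 of both Tg26 states form batch B, which holds no FVB/N mouse. Neither the age and sex of single mice nor the site of the nodes is given in the labels. The spleen array of lymphoma mouse 4 has a disease status code that stands for FVB/N elsewhere, although its title and description say lymphoma. It was kept as lymphoma, and the results are given without it where that changes them.

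The node arrays were not alike in their content of other tissues. Of the 15 node arrays, 8 carried transcripts of neighbouring organs, defined as a salivary gland, exocrine pancreas or adipose marker mean more than 1 log2 unit above the lowest node: lymphoma mouse 5, asymptomatic mice 2 to 6 and FVB/N mice 2 and 3. On these 8 arrays the mean level of 11 fibroblast and reticular cell markers, none of them a collagen, was 7.23 to 9.75 log2 units. It was 5.91 to 7.68 on the other 7 node arrays. Of those 7, asymptomatic mouse 1 was close under the limit, with an adipose mean of 6.74 against 5.84 on the lowest node. Markers of high endothelium, the lymph node vessel through which lymphocytes enter, averaged 6.00 to 7.02 in lymphoma nodes, 6.85 to 8.11 in asymptomatic nodes and 7.01 to 8.21 in FVB/N nodes, while the 15 spleens lay between 5.78 and 6.21. The nodes of lymphoma mice 2, 4 and 6, at 6.01, 6.00 and 6.08, thus lay within the spleen range for this node marker list. The node array of asymptomatic mouse 6 had an exocrine pancreas mean of 13.26. Its mean over 5 spleen markers was 8.78, above all 15 spleens (6.56 to 7.86). Its high endothelium mean, 6.85, was the lowest of the asymptomatic nodes, though above the spleens. That array was kept as a node. T cell markers averaged 6.78 to 8.58 in lymphoma nodes and 9.09 to 11.07 in asymptomatic nodes. The rule for neighbouring organs was applied to nodes only. In spleen, exocrine pancreas markers averaged 8.49 in asymptomatic mouse 5, 7.37 in asymptomatic mouse 4 and 6.84 in lymphoma mouse 1. The other spleens lay between 5.89 and 6.32, and no spleen was left out for these transcripts. In whole tissue, fewer cells of a type and less RNA per cell cannot be told apart.

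Collagen chains wind into a triple helix. The fibrillar types form the load-bearing fibres and, in lymphoid organs, the conduits that reticular cells wrap, while type IV forms the sheet of every basement membrane. Laminins are trimers of an alpha, a beta and a gamma chain that join basement membranes to integrins and dystroglycan on cells. Fibroblasts, reticular cells, pericytes and endothelium are the usual sources of both families.

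The same log2 values were fitted in 3 ways, given side by side because node results differed among them. The first, which follows the authors' description, estimated the 6 group means with 6 surrogate variables, which are patterns shared by many genes that the groups do not explain. The second used batch as a term instead. The third was the second without the 8 nodes that carried neighbouring-organ transcripts, which left 5 lymphoma nodes, 1 asymptomatic node and 1 FVB/N node, so that each lone node is assumed to vary like the other groups. A gene was called at an adjusted p under 0.05, by limma with Benjamini-Hochberg adjustment over all 19938 genes. Unless another fit is named, a fitted difference comes from the first. A difference of 1 log2 unit is a 2-fold difference.

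As a group, these genes varied less than most. Over the 15 spleens, 9 of the 54 members (16.7%) ranged over more than 1 log2 unit, against 39.9% of all genes. Over the 15 nodes, 23 members (42.6%) did, against 54.1% of all genes. The median range of a member was 0.70 log2 units in node and 0.52 in spleen, against 1.05 and 0.87 over all genes. In spleen the wide-ranging members were the fibrillar Col27a1, the laminin chains Lamc1, Lamb2 and Lama4, and Col6a3, Col6a4, Col6a5, Col10a1 and Col14a1. In node they included 8 of the 10 laminin chains, 5 of the 11 fibrillar collagens and 3 of the 9 basement membrane and anchoring collagens.

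**Figure D1:**
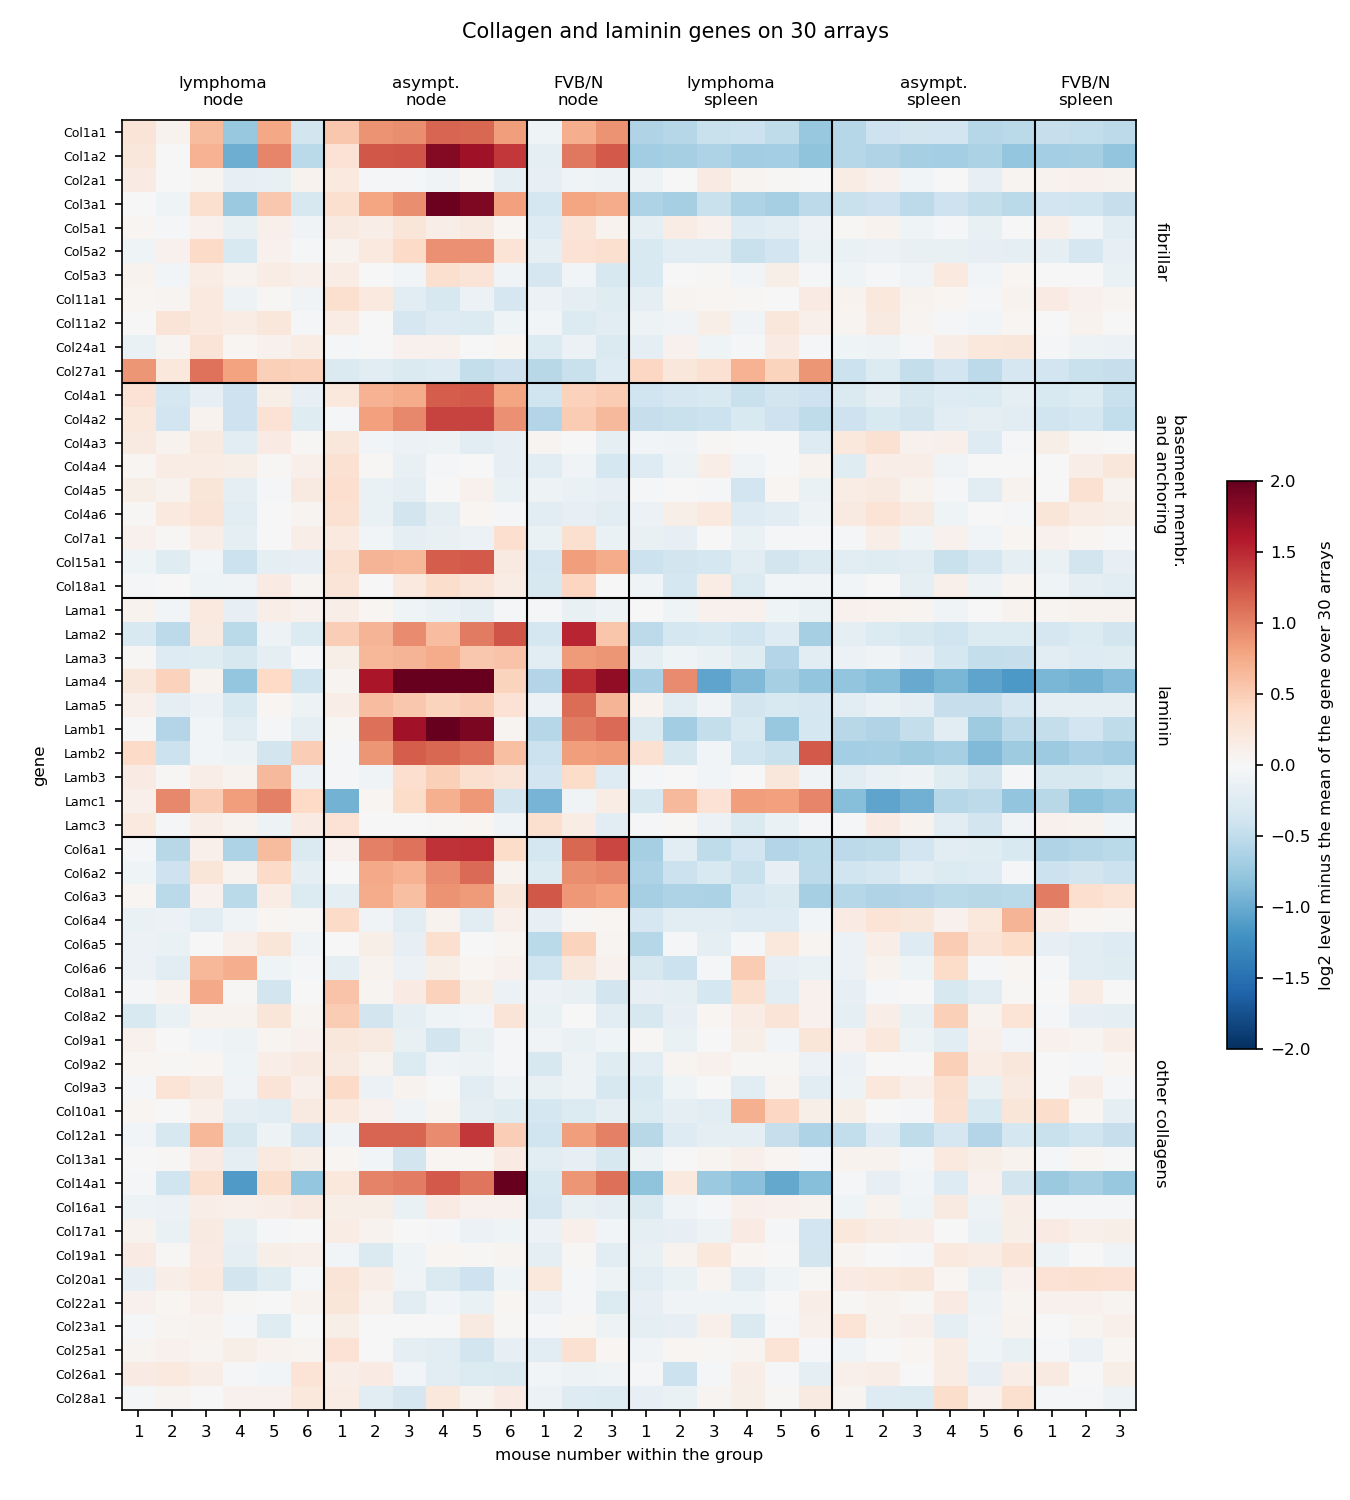
Log2 level of each of the 54 genes on each of the 30 arrays, minus the mean of that gene over all arrays (colour scale ending at -2 and 2). Rows are grouped by class and columns by tissue and state; asymptomatic mice 2 to 5 and FVB/N mice 2 and 3 share a block of high node levels for Col1a1, Col1a2, Col3a1, Col4a1, Col4a2, Col15a1, several laminin chains, Col6a1, Col6a2, Col12a1 and Col14a1, while Col27a1 is high in lymphoma in both tissues.

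With surrogate variables, few members were called between lymphoma and asymptomatic Tg26 mice, and the calls went both ways. With batch as a term, more were called in node, most of them lower. In node, 1 member was called higher (background 11.6% of all genes) and 4 were called lower (12.5%), so that 5 of 54 were called against 24.1% of all genes. In spleen, 2 were called higher (8.58%) and 1 lower (7.25%), or 3 of 54 against 15.8%. The higher ones were Col27a1 in both tissues and Lamc1 in spleen. The lower ones were Col15a1, Col4a1, Lama3 and Lamb1 in node and Col6a4 in spleen. The median fitted difference over the 54 genes was -0.08 in node and -0.06 in spleen, against -0.02 and -0.03 over all genes. With batch as a term, 2 members were called higher in node (16.5%) and 18 lower (16.2%), or 20 of 54 against 32.8% of all genes. In spleen that fit called 3 higher (9.85%) and 1 lower (10.3%), or 4 of 54 against 20.1%. Without the 8 nodes with neighbouring-organ transcripts, 2 were called higher in node (5.19%) and 4 lower (6.48%): Col27a1 and Lamc1 higher, and Col15a1, Lama2, Col6a4 (-0.53) and Col8a2 (-0.67) lower. With those nodes left out, spleen gave 3 higher (11.3%) and 2 lower (12.8%). The asymptomatic node that remained, that of mouse 1, was the highest of its group for Col6a4 (7.23) and Col8a2 (7.60). The other asymptomatic nodes lay at 6.62 to 6.95 for Col6a4 and at 6.73 to 7.36 for Col8a2.

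The region before the transcription start of 4 members is shown because these genes carry the contrasts described next: Col27a1, the member higher in lymphoma in both tissues, Col6a3, lower in both Tg26 states than in FVB/N in spleen, and Col1a2 and Col3a1, fibre-forming chains with a common pattern over the nodes. Each is the 250 bases up to the start, 5′ to 3′ on the strand of the gene, from RefSeq on GRCm38.p6. Col27a1 lies at chr4:63215162-63215411 on the plus strand, Col6a3 at chr1:90843972-90844221 on the minus strand, Col1a2 at chr6:4505368-4505617 on the plus strand and Col3a1 at chr1:45311288-45311537 on the plus strand. Capitals mark matches, on either strand, to TATAAA (the TATA box), CCAAT (the CCAAT box), GGGCGG (the GC box) or CACGTG (the E-box that MYC binds); no match overlaps another.
Col27a1: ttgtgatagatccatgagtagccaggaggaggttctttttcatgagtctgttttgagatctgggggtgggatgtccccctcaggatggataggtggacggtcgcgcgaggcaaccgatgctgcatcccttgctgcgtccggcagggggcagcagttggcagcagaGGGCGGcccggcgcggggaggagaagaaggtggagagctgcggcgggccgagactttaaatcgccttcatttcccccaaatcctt
Col6a3: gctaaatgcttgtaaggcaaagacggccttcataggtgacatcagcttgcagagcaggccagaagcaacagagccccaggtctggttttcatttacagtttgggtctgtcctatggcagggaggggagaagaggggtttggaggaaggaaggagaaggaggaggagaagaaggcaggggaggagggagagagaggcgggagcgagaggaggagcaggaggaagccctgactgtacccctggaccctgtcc
Col1a2: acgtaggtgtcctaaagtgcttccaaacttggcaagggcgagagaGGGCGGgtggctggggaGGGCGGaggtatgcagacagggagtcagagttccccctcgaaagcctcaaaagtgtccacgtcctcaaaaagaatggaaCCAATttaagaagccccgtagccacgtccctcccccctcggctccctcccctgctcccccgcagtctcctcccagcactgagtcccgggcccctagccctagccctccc
Col3a1: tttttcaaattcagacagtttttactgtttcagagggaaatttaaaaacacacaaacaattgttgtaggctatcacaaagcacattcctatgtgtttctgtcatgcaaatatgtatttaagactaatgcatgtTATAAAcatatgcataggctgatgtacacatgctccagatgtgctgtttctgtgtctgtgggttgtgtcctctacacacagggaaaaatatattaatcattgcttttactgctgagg

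The 4 windows differ in base composition. Col1a2 has 62.0% G and C with 11 CpG, Col27a1 59.6% with 15 CpG, Col6a3 57.2% with 3 CpG and Col3a1 35.2% with 0 CpG, against a median of 52.4% over the 32851 promoters of the RefSeq table. The table held 44 promoters of 40 of the 54 genes. GGGCGG was found in 54.5% of these 44 and in 32.7% of all promoters, CCAAT in 31.8% and 33.8%, and TATAAA in 11.4% and 12.4%. CACGTG was found in 0.0% of the 44 and in 6.0% of all promoters.

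Among the fibrillar collagens, Col27a1 was higher in lymphoma in both tissues. It encodes the single chain of type XXVII, a fibrillar collagen known mainly from cartilage, where it is needed for normal growth plates. In node its log2 level was 8.25, 8.67 and 9.11 (lowest, median, highest) in lymphoma mice and 7.55, 7.74 and 7.81 in asymptomatic mice, and 7.47, 7.59 and 7.77 in the 3 FVB/N mice. In spleen it was 8.26, 8.46 and 8.92 in lymphoma mice and 7.50, 7.63 and 7.76 in asymptomatic mice, and 7.57, 7.59 and 7.65 in FVB/N mice. Every lymphoma sample lay above every other sample of its tissue.

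Against asymptomatic mice, the fitted difference of Col27a1 was 0.94 ± 0.16 log2 units in node (SE, adjusted p = 0.000103) and 0.85 ± 0.14 in spleen (adjusted p = 0.000153). Against FVB/N mice it was 1.05 ± 0.19 in node (adjusted p = 0.000361) and 0.91 ± 0.18 in spleen (adjusted p = 0.000931). With batch as a term the difference from asymptomatic mice was 0.98 in node and 0.90 in spleen. Within batch A it was 0.99 in node and 0.71 in spleen, and within batch B 0.96 in node and 1.09 in spleen. The node value without the 8 nodes was 0.94 (adjusted p = 0.0165). All of these calls of Col27a1 held under the alternatives tried and with each mouse left out in turn. Within a mouse the node minus spleen difference of Col27a1 was -0.43, 0.07 and 0.78 (lowest, median, highest) in lymphoma, -0.08, 0.09 and 0.20 in asymptomatic and -0.18, 0.00 and 0.20 in FVB/N mice, and the test of whether the lymphoma difference depends on tissue gave 0.09 (adjusted p = 0.923).

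Col1a1 and Col1a2, the chains of type I collagen, and Col3a1, the chain of the type III collagen of reticular fibres, showed another pattern. Col1a1 had node levels of 7.04, 7.95 and 8.57 in lymphoma and 8.34, 8.71 and 8.95 in asymptomatic mice, and 7.71, 8.52 and 8.70 in FVB/N mice. Col1a2, described after its values were seen, had node levels of 6.57, 7.66 and 8.52 in lymphoma and 7.83, 8.88 and 9.39 in asymptomatic mice, and 7.34, 8.61 and 8.76 in FVB/N mice. Col3a1 had node levels of 6.63, 7.33 and 7.91 in lymphoma and 7.69, 8.25 and 9.33 in asymptomatic mice, and 7.02, 8.12 and 8.16 in FVB/N mice. The lymphoma and asymptomatic ranges overlapped for all 3 genes, and the low FVB/N value was that of mouse 1 for each.

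The 3 genes differed between the fits in node. With surrogate variables, none of them was called between lymphoma and asymptomatic mice. All 3 were lower in lymphoma with batch as a term: Col1a1 by -0.82 (adjusted p = 0.00114), Col1a2 by -1.22 (adjusted p = 0.000671) and Col3a1 by -1.16 (adjusted p = 0.00022). None was called without the 8 nodes with neighbouring-organ transcripts. In spleen the same genes were flat: Col1a1 was 7.03, 7.26 and 7.37 in lymphoma, 7.23, 7.32 and 7.42 in asymptomatic and 7.27, 7.30 and 7.34 in FVB/N spleens. Col1a2 was 6.73, 6.85 and 6.92 in lymphoma and 6.77, 6.89 and 6.97 in asymptomatic spleens, and Col3a1 6.71, 6.76 and 6.93 in lymphoma and 6.83, 6.92 and 6.97 in asymptomatic spleens. None of the 3 passed the test in spleen.

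**Figure D2:**
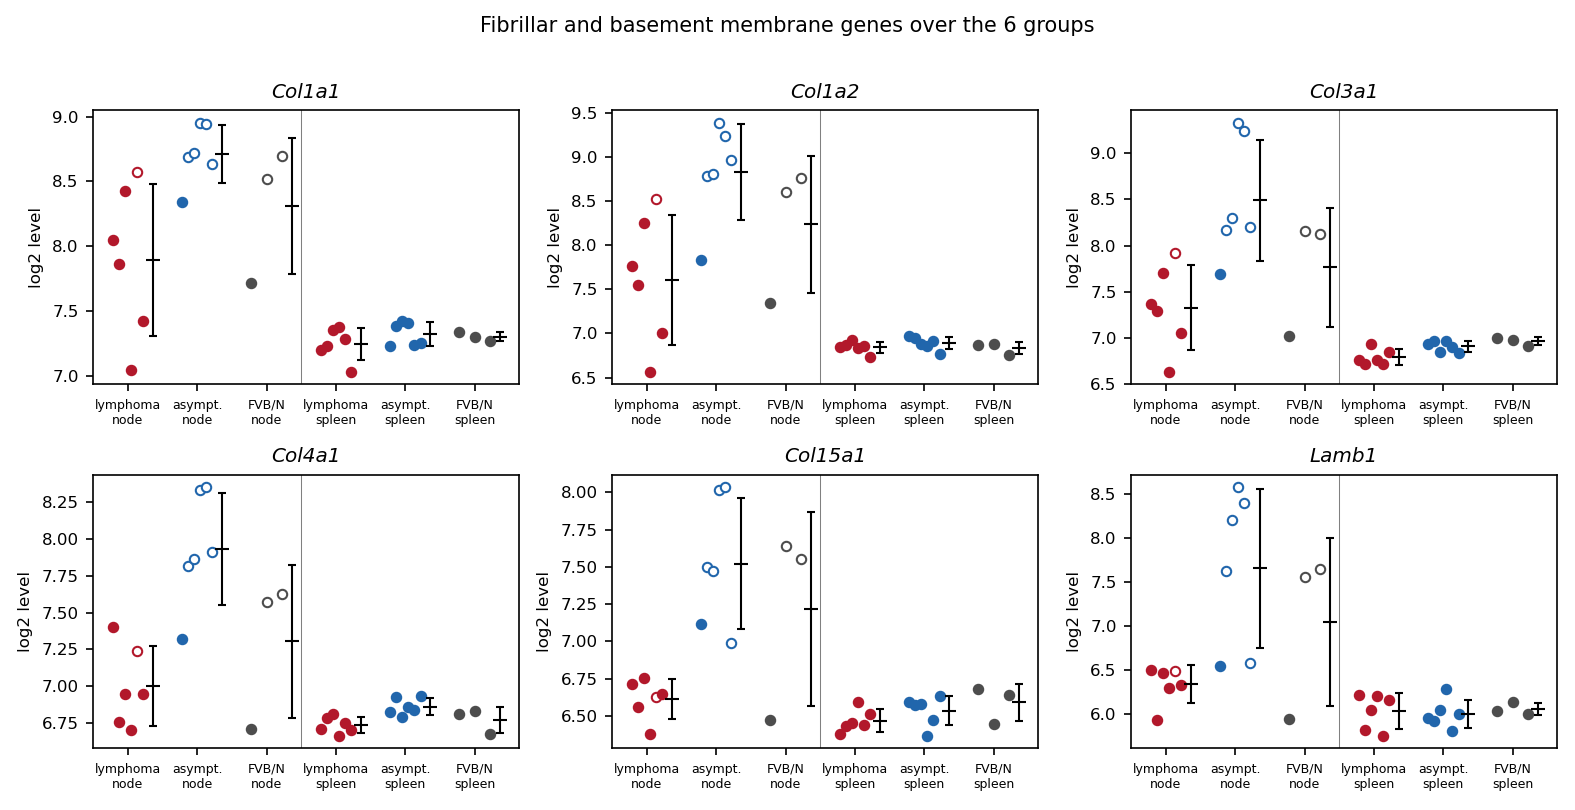
Log2 level on each array of Col1a1, Col1a2, Col3a1, Col4a1, Col15a1 and Lamb1, with node groups on the left and spleen groups on the right; the black bar is the mean ± SD, and open circles are the 8 nodes that carried neighbouring-organ transcripts. Asymptomatic mice 2 to 5 and FVB/N mice 2 and 3 are high in node, asymptomatic mouse 6 is high for the first 4 genes but lies at 6.99 for Col15a1 and 6.58 for Lamb1, near asymptomatic mouse 1, FVB/N mouse 1 lies with the lymphoma nodes, and the spleens are low and alike.

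Of the remaining fibrillar members, Col5a2, a chain of the type V collagen that sets fibril width, had node levels of 5.91, 6.24 and 6.60 in lymphoma and 6.29, 6.54 and 7.13 in asymptomatic mice, and was lower by -0.43 only with batch as a term. Col11a2, a chain of cartilage type XI, had node levels of 7.26, 7.45 and 7.54 in lymphoma and 6.94, 7.10 and 7.42 in asymptomatic mice, and was higher by 0.27 with batch as a term. Col3a1 and Col5a2 are neighbours on their chromosome. Col2a1, Col5a1, Col5a3, Col11a1 and Col24a1 were called in neither tissue between lymphoma and asymptomatic mice, in the fit with surrogate variables or with batch.

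Of the 9 basement membrane and anchoring collagens, Col15a1 and Col4a1 were called lower in lymphoma nodes (background 12.5%), 3 were with batch as a term (16.2%), and 0 were called in spleen in either fit. Col4a1 and Col4a2 encode the paired chains of the type IV network found in every basement membrane and stand head to head on 1 chromosome. Col15a1, the chain of type XV, lies at the border of basement membrane and fibres, mostly around vessels. Col15a1 had node levels of 6.38, 6.64 and 6.75 in lymphoma and 6.99, 7.48 and 8.03 in asymptomatic mice, and 6.47, 7.55 and 7.64 in FVB/N mice. Its lymphoma and asymptomatic nodes did not overlap, in a direction that held for 5 of the 54 members and 5.81% of all genes.

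For Col15a1 the fitted node difference between lymphoma and asymptomatic mice was -0.67 ± 0.19 (SE, adjusted p = 0.0112), -0.91 with batch as a term and -0.49 without the 8 nodes (adjusted p = 0.0357). Within batch A it was -0.69 and within batch B -1.13. The call of Col15a1 was lost without lymphoma mouse 5, asymptomatic mouse 1 or asymptomatic mouse 4 (fitted differences between -0.80 and -0.42 over the mice left out). With batch and the neighbouring-organ marker means as covariates its difference was -0.1957 (adjusted p = 0.595), and it was not called. Its spleen levels were 6.38, 6.45 and 6.59 in lymphoma, 6.37, 6.57 and 6.63 in asymptomatic and 6.45, 6.64 and 6.68 in FVB/N mice, and its groups overlapped there.

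Col4a1 had node levels of 6.71, 6.95 and 7.40 in lymphoma and 7.32, 7.89 and 8.35 in asymptomatic mice, and 6.71, 7.57 and 7.63 in FVB/N mice. The lymphoma and asymptomatic ranges of Col4a1 met at their ends. Its fitted difference was -0.49 ± 0.16 (SE, adjusted p = 0.0331), it was -0.93 with batch as a term, and the call was lost in 5 of 13 alternatives and in 8 of 15 fits with a mouse left out. Col4a2 had node levels of 6.46, 6.79 and 7.17 in lymphoma and 6.84, 7.81 and 8.24 in asymptomatic mice, and was called lower only with batch as a term (-0.97). Col7a1, the anchoring fibril collagen of skin, ranged in node over 7.15, 7.37 and 7.46 in lymphoma and 7.12, 7.23 and 7.65 in asymptomatic mice and was not called. Neither were Col18a1, the parent chain of endostatin, and Col4a3, Col4a4, Col4a5 and Col4a6, the type IV chains of kidney and other specialised membranes.

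Among the laminin chains, Lamc1 was called higher in lymphoma in spleen (background 8.58%). Lama3 and Lamb1 were called lower in node (12.5%), and 6 of the 10 chains were with batch as a term (16.2%). Lamc1 encodes the gamma-1 chain, part of most laminin trimers. Its spleen levels were 8.08, 9.12 and 9.36 in lymphoma and 7.33, 7.58 and 7.88 in asymptomatic mice, and 7.58, 7.64 and 7.84 in FVB/N mice. Every lymphoma spleen lay above every other spleen, and in this direction 3 of the 54 members and 4.59% of all genes had lymphoma and asymptomatic spleens that did not overlap.

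The fitted spleen difference of Lamc1 between lymphoma and asymptomatic mice was 1.08 ± 0.22 (SE, adjusted p = 0.000992) and 1.33 with batch as a term, 1.16 within batch A and 1.50 within batch B. This Lamc1 call held under every alternative tried and with each mouse left out. Against FVB/N spleens the fitted difference of Lamc1 was 0.60 (adjusted p = 0.157), and 1.02 with batch as a term (adjusted p = 0.0139). In node Lamc1 was 8.50, 9.06 and 9.40 in lymphoma and 7.44, 8.60 and 9.26 in asymptomatic mice, and 7.47, 8.32 and 8.54 in FVB/N mice. The asymptomatic node that lay lowest was that of mouse 1, the only one under the limit for neighbouring-organ transcripts.

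The node difference of Lamc1 from asymptomatic mice was 0.66 ± 0.24 (adjusted p = 0.0505), not called, and 0.52 with batch as a term (adjusted p = 0.0739). It was 1.36 without the 8 nodes (adjusted p = 0.00565). Against FVB/N nodes Lamc1 was called higher by 0.92 ± 0.29 (adjusted p = 0.0298), a call lost without lymphoma mouse 2 or FVB/N mouse 1, with batch as a term (0.69, adjusted p = 0.0791) and within batch A (0.80, adjusted p = 0.109). The test of whether its lymphoma difference depends on tissue gave -0.43 (adjusted p = 0.64).

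Lamb1, the beta-1 chain that pairs with gamma-1 in most tissues, had node levels of 5.93, 6.40 and 6.50 in lymphoma and 6.54, 7.91 and 8.57 in asymptomatic mice, and 5.95, 7.55 and 7.64 in FVB/N mice. Its lymphoma and asymptomatic nodes did not overlap, although the gap between them was small. The fitted difference was -0.89 ± 0.24 (SE, adjusted p = 0.00818) and -1.32 with batch as a term. It was not called without lymphoma mouse 5, asymptomatic mouse 4 or FVB/N mouse 2, nor without the 8 nodes, and it was 0.0657 (adjusted p = 0.912) with batch and the neighbouring-organ marker means as covariates. In spleen Lamb1 was 5.75, 6.10 and 6.22 in lymphoma and 5.81, 5.98 and 6.28 in asymptomatic mice.

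Lama3, an alpha chain best known from epithelial laminin-332, had node levels of 5.56, 5.67 and 5.91 in lymphoma and 6.01, 6.51 and 6.63 in asymptomatic mice, and 5.68, 6.74 and 6.77 in FVB/N mice. Its fitted difference was -0.39 ± 0.13 (adjusted p = 0.039) and -0.73 with batch as a term, and the call was lost in 8 of 12 alternatives and in 10 of 15 fits with a mouse left out. Lama3 lay below the array median on all 30 arrays, as did 16 of the 54 members in all, Col5a2 and Col8a1 among them. Lama2 and Col12a1 were each over it on 1 of the 30 arrays. Lamb3, the beta chain of the same epithelial laminin, had node levels of 6.75, 6.96 and 7.51 in lymphoma and 6.78, 7.14 and 7.33 in asymptomatic mice, and 6.47, 6.59 and 7.23 in FVB/N mice. Lamb3 was called higher in lymphoma than in FVB/N nodes (0.68 ± 0.16, adjusted p = 0.00436), although the groups overlapped, and the difference was 0.20 with batch as a term (adjusted p = 0.348). That Lamb3 call was lost in 5 of 12 alternatives, and without lymphoma mouse 5 or FVB/N mouse 1.

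Lama2, Lama4, Lama5 and Lamb2 were described after their values were seen. Lama4, the alpha chain of endothelial laminin-411, had node levels of 5.32, 6.24 and 6.55 in lymphoma and 6.15, 7.91 and 8.55 in asymptomatic mice, and 5.50, 7.56 and 7.87 in FVB/N mice. In spleen its levels were 5.04, 5.36 and 7.04 in lymphoma and 4.94, 5.13 and 5.29 in asymptomatic mice, with lymphoma mouse 2 far above the others. Lama4 was lower in lymphoma nodes by -1.49 with batch as a term, Lama2, the alpha chain of muscle and nerve basement membranes, by -1.10, Lamb2, a beta chain of vessel and kidney membranes, by -0.83 and Lama5, the alpha chain of laminin-511, by -0.51. Lama2 was also called without the 8 nodes (-0.75, adjusted p = 0.0156). In spleen Lamb2 was 6.91, 7.17 and 8.59 in lymphoma and 6.48, 6.67 and 6.70 in asymptomatic mice, and these did not overlap. It was called there with batch as a term (0.77, adjusted p = 0.0307) and not with surrogate variables (0.21, adjusted p = 0.671). Over the 10 laminin chains the median measured node difference was -0.62 log2 units, against 0.07 over all genes, and the median fitted difference was -0.21 against -0.02.

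**Figure D3:**
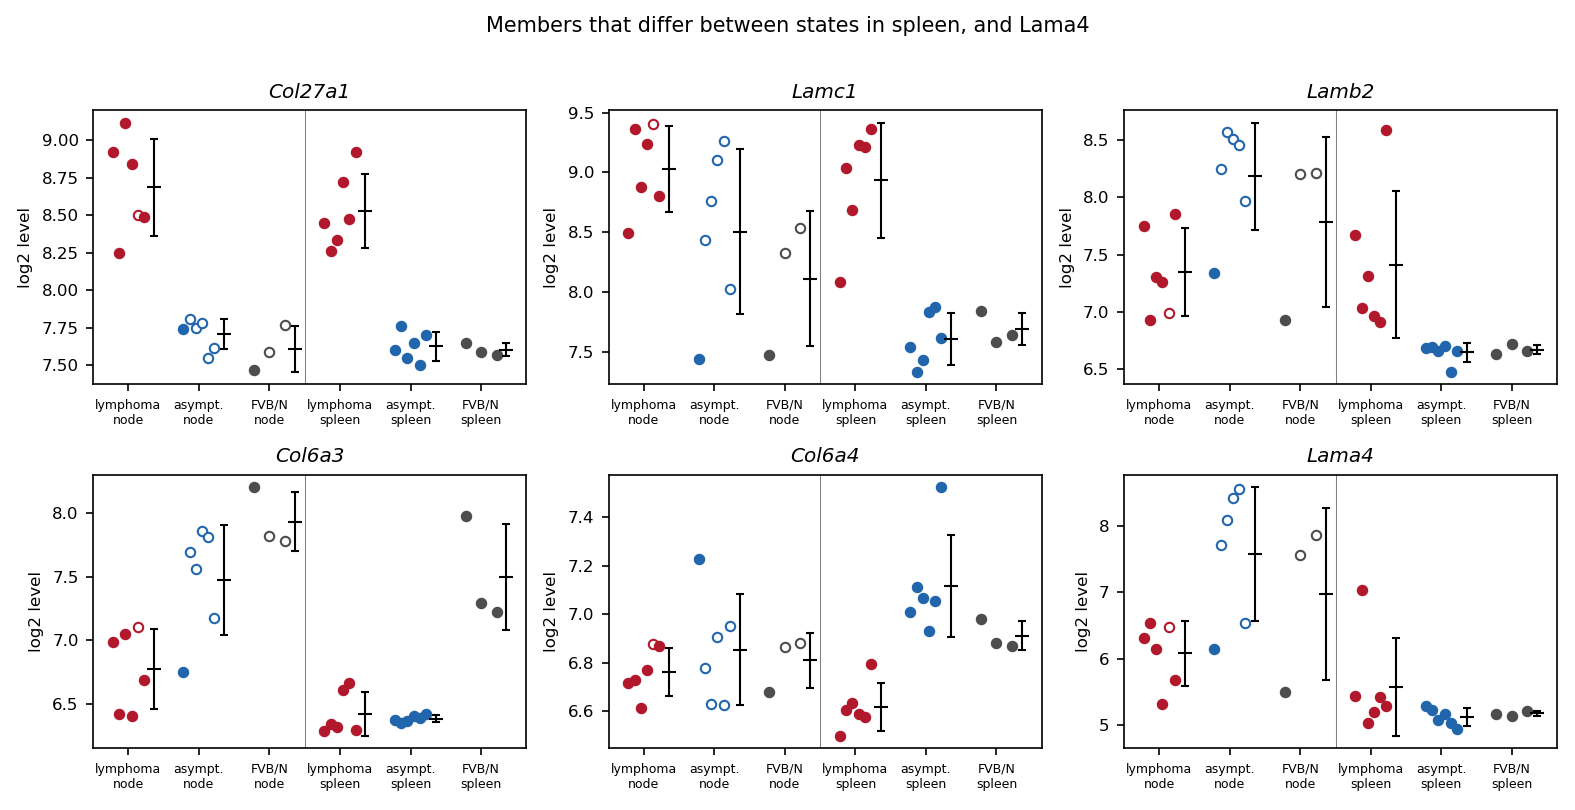
Log2 level on each array of Col27a1, Lamc1, Lamb2, Col6a3, Col6a4 and Lama4, with node groups on the left and spleen groups on the right; the black bar is the mean ± SD, and open circles are the 8 nodes that carried neighbouring-organ transcripts. Col27a1 is high in lymphoma in both tissues, Lamc1 and Lamb2 are high in lymphoma spleens, and Col6a3 is high in FVB/N spleens. In node the asymptomatic Col6a3 levels reach into the FVB/N range.

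Among the other collagens, Col6a3 separated both Tg26 states from FVB/N in spleen. It encodes the long alpha-3 chain of type VI, a collagen of microfibrils around cells and in adipose tissue. In spleen it was 6.29, 6.33 and 6.67 in lymphoma and 6.35, 6.39 and 6.42 in asymptomatic mice, and 7.22, 7.29 and 7.97 in FVB/N mice. In node it was 6.41, 6.84 and 7.10 in lymphoma and 6.75, 7.63 and 7.86 in asymptomatic mice, and 7.78, 7.82 and 8.20 in FVB/N mice. No Tg26 spleen reached the lowest FVB/N spleen, and in node the lymphoma mice lay below all FVB/N mice while the asymptomatic range reached into theirs.

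Col6a3 was the 1 member called between asymptomatic and FVB/N spleens, where 0 members were called higher (background 0.306%) and 1 lower (0.311%), or 1 of 54 against 0.617% of all genes. With batch as a term it was again the 1 member called (0.12% of all genes, 0.0853% lower). Its fitted difference there was -1.16 ± 0.21 (SE, adjusted p = 0.0106) and -1.16 with batch as a term. It was -1.13 within batch A (adjusted p = 0.201), the batch that holds all FVB/N mice, and -1.17 with the mouse number as a block, where the adjusted p was 0.082, limma called 0 members and 1 (1.85%) had an unadjusted p under 0.05, against 5.09% of all genes. Leaving out each mouse in turn kept the call. In lymphoma spleens Col6a3 was lower than in FVB/N by -1.09 ± 0.26 (adjusted p = 0.0063), a call that held under every alternative and with each mouse left out. In lymphoma nodes it was lower by -0.98 ± 0.28 (adjusted p = 0.0195), and the call was lost without asymptomatic mouse 4 or FVB/N mouse 1. In asymptomatic nodes the difference was -0.43 (adjusted p = 0.359). The comparisons of the Tg26 states with FVB/N share the 3 FVB/N mice.

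The chains that join alpha-3 in the type VI trimer did not follow it in spleen. Col6a1, a neighbour of Col6a2, had spleen levels of 6.77, 6.90 and 7.22 in lymphoma and 6.91, 7.08 and 7.20 in asymptomatic mice, and 6.82, 6.86 and 6.88 in FVB/N mice. Col6a2, described after its values were seen, had 6.70, 6.89 and 7.16 in lymphoma and 6.92, 7.06 and 7.28 in asymptomatic mice, and 6.89, 6.89 and 6.95 in FVB/N mice. The Tg26 ranges of both genes took in or lay just above the FVB/N values. In node Col6a1 was 6.81, 7.27 and 8.05 in lymphoma and 7.51, 8.47 and 8.90 in asymptomatic mice, and 7.08, 8.58 and 8.77 in FVB/N mice. Lower in lymphoma than in asymptomatic nodes with batch as a term were Col6a1 by -1.04, Col6a2 by -0.59 and Col6a3 by -0.70.

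Col6a4, which encodes a further type VI chain and lies beside Col6a5 and Col6a6, was the member called lower in lymphoma spleens. Its levels were 6.50, 6.60 and 6.79 in lymphoma and 6.93, 7.06 and 7.52 in asymptomatic spleens, and 6.87, 6.88 and 6.98 in FVB/N spleens. Lymphoma spleens lay below all others, as 1 of the 54 members and 4.96% of all genes did against asymptomatic spleens. The fitted difference from asymptomatic mice was -0.47 ± 0.13 (SE, adjusted p = 0.013) and -0.50 with batch as a term, and the call was lost without lymphoma mouse 2 and within batch B (-0.52, adjusted p = 0.0753). In node the Col6a4 levels overlapped, at 6.61, 6.75 and 6.88 in lymphoma and 6.62, 6.84 and 7.23 in asymptomatic mice.

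Col12a1 and Col14a1, chains of collagens that sit on the surface of fibrils, were described after their values were seen. Col14a1 had node levels of 5.87, 6.78 and 7.34 in lymphoma and 7.21, 8.04 and 9.45 in asymptomatic mice, and 6.69, 7.87 and 8.10 in FVB/N mice. The level of 9.45 was that of asymptomatic mouse 6. Col12a1 had node levels of 5.50, 5.63 and 6.50 in lymphoma and 5.76, 6.90 and 7.26 in asymptomatic mice, and 5.44, 6.67 and 6.85 in FVB/N mice. Col14a1 was lower in lymphoma nodes by -1.44 and Col12a1 by -0.93 with batch as a term; neither was called with surrogate variables or without the 8 nodes. In spleen Col14a1 was 5.96, 6.18 and 7.19 in lymphoma, where mouse 2 was high, and 6.63, 6.89 and 7.07 in asymptomatic mice. Col8a1, a short-chain collagen of vessels, had median node levels of 6.25 in lymphoma and 6.38 in asymptomatic mice. Col9a2, a cartilage chain, had node levels of 7.40, 7.52 and 7.67 in lymphoma and 7.21, 7.43 and 7.66 in asymptomatic mice. Col20a1, a minor fibril-associated chain, had spleen levels of 6.53, 6.64 and 6.81 in lymphoma and 6.61, 6.88 and 6.98 in asymptomatic mice. Col8a1, Col9a2 and Col20a1 were not called between lymphoma and asymptomatic mice.

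Of the other comparisons with FVB/N, the 54 genes gave 3 called higher (background 8.59%) and 1 lower (7.98%) in lymphoma nodes and 1 higher (7.1%) and 1 lower (5.25%) in lymphoma spleens. The 3 higher in node were Col27a1, Lamc1 and Lamb3. With batch as a term these became 5 higher (11.2%) and 6 lower (11.3%) in node and 2 higher (7.5%) and 1 lower (7.64%) in spleen. Without the 8 nodes they were 3 higher (4.92%) and 1 lower (7.43%) in node and 3 higher (9.05%) and 2 lower (9.12%) in spleen. Between asymptomatic and FVB/N nodes limma called 0 members higher (1.34%) and 0 lower (0.592%), with 16 members (29.6%) and 16.0% of all genes at an unadjusted p under 0.05. With batch as a term limma called 0 members (0.0401% of all genes, 0.015% higher and 0.0251% lower), with 9 members (16.7%) and 8.26% of all genes at an unadjusted p under 0.05. Without the 8 nodes this comparison sets 1 asymptomatic against 1 FVB/N node array, so that the 0 calls there (0.00502% of all genes higher and 0% lower) say nothing of the states. In spleen limma then called 0 higher (0.166%) and 1 lower (0.0903%). The median fitted difference of asymptomatic from FVB/N nodes was 0.18 over the 54 genes and 0.02 over all genes. Without the spleen array that has the conflicting code, 3 members, Col4a1, Col4a2 and Lamb3, were called higher in asymptomatic than in FVB/N nodes (2.56% of all genes).

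Groups that did not overlap were also counted. Lymphoma and FVB/N nodes did not overlap for 10 members that were higher (10.3% of all genes) and 1 that was lower (8.25%), and spleens for 4 higher (8.38%) and 3 lower (12.5%). Asymptomatic and FVB/N nodes did not overlap for 2 members that were higher (1.26%) and 0 that were lower (1.26%), and spleens for 2 higher (3.99%) and 2 lower (4.04%).

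The 18 members called lower in lymphoma nodes with batch as a term (background 16.2%) were 4 fibrillar collagens, 3 basement membrane collagens, 6 laminin chains and 5 other collagens. For these 18, the nodes that did not carry neighbouring-organ transcripts were looked at singly. Asymptomatic mouse 1 lay within the lymphoma range for 13 of the 18 and above it for 5, which were Col15a1, Lama2, Lama3, Lama5 and Lamb1. It was the lowest of the 6 asymptomatic nodes for 17 of the 18. FVB/N mouse 1 lay within the lymphoma range for 15, above it for 1, Col6a3, and below it for 2, Col12a1 and Col4a2. Lymphoma mouse 5, the lymphoma node with such transcripts, was the highest of the 6 lymphoma nodes for 8 of the 18, all collagens, and not for the other 10, which included the 6 laminin chains.

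**Figure D4:**
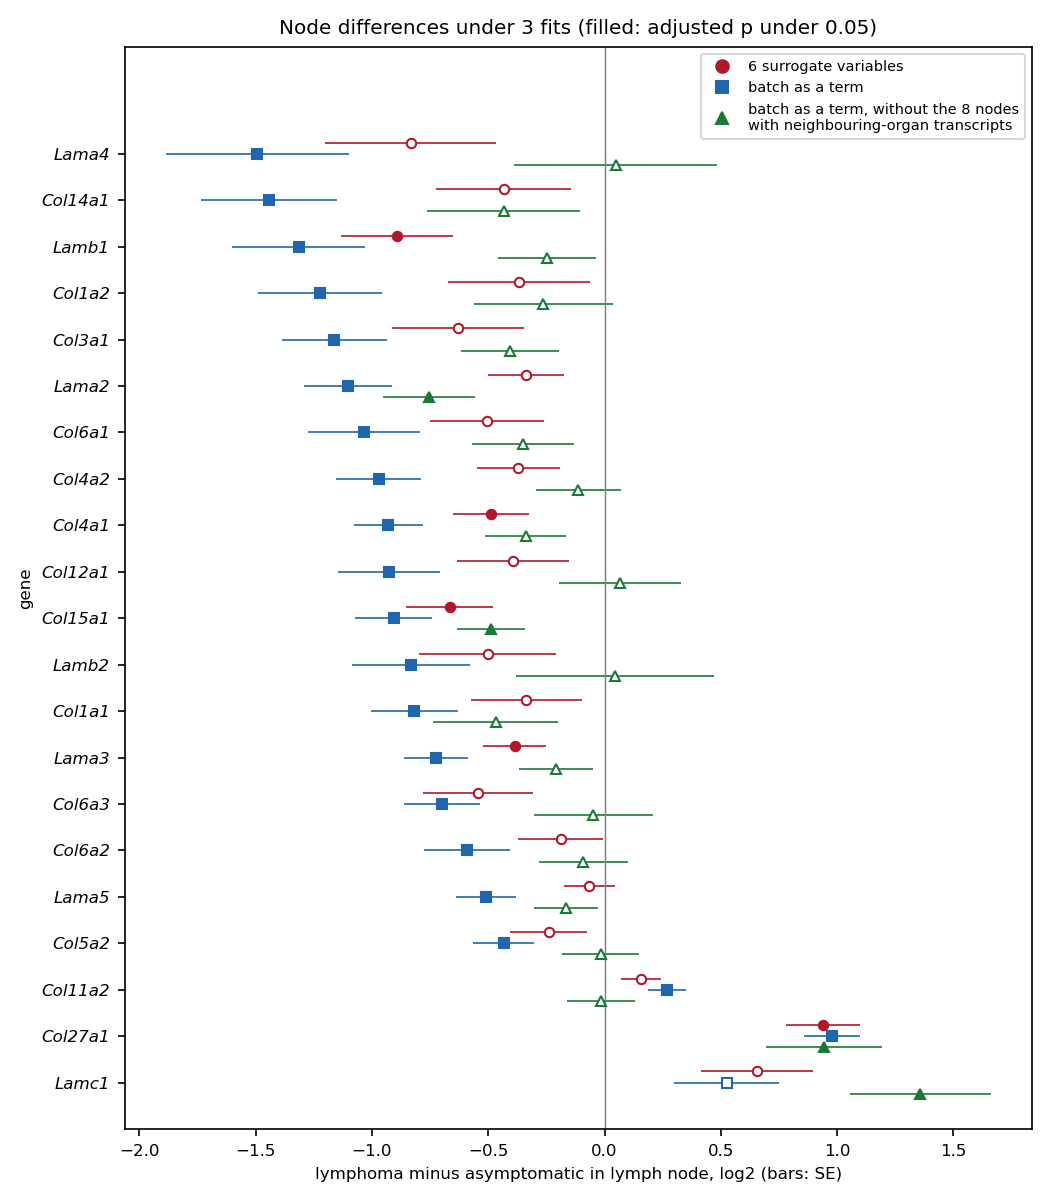
Lymphoma minus asymptomatic difference in lymph node (log2 units, horizontal axis; bars are the SE) for 21 members under the fit with 6 surrogate variables (circles), with batch as a term (squares) and with batch as a term without the 8 nodes that carried neighbouring-organ transcripts (triangles). Filled marks have an adjusted p under 0.05; Col27a1 is filled under all 3 fits and Col15a1 is the 1 lower member that is.

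Markers of the stroma differed between the node groups in the same arrays. The fibroblast and reticular cell list averaged 5.91, 6.85 and 7.38 log2 units in lymphoma nodes and 7.68, 9.38 and 9.66 in asymptomatic nodes, and 7.34, 9.48 and 9.75 in FVB/N nodes. Of its 11 measured markers, 8 were called lower in lymphoma than in asymptomatic nodes with surrogate variables (background 12.5%) and 11 with batch as a term (16.2%). The endothelium list averaged 6.38, 6.49 and 6.90 in lymphoma nodes and 7.37, 8.82 and 8.95 in asymptomatic nodes, and the smooth muscle and pericyte list 6.25, 6.45 and 6.78 in lymphoma nodes and 6.82, 8.20 and 8.37 in asymptomatic nodes. In spleen the fibroblast and reticular cell list lay between 5.86 and 6.09 in lymphoma and between 5.91 and 6.20 in asymptomatic mice. The part of these markers in the node results was not tested.

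**Figure D5:**
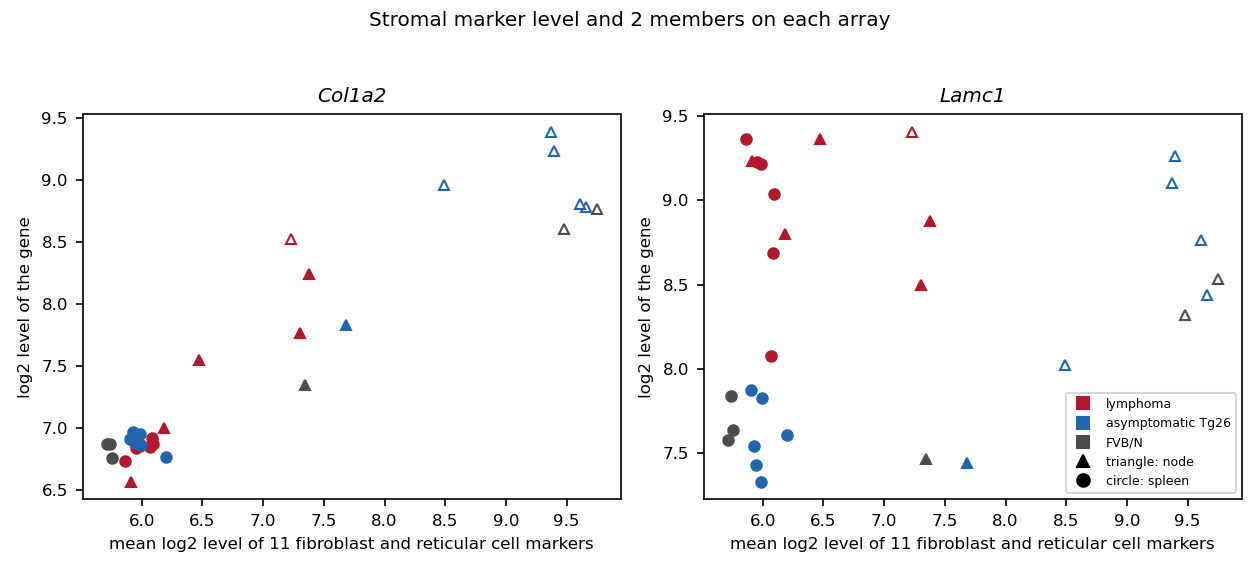
Log2 level of Col1a2 (left) and Lamc1 (right) on each of the 30 arrays against the mean log2 level of 11 fibroblast and reticular cell markers; triangles are nodes, circles are spleens, and open symbols are the 8 nodes with neighbouring-organ transcripts. Col1a2 is higher on the nodes with high marker means than in the spleens, but among those nodes it does not rank with the marker mean. The highest Col1a2 level, 9.39 in asymptomatic mouse 4, lies at a marker mean of 9.37. The highest marker mean, 9.75 in FVB/N mouse 3, goes with a Col1a2 level of 8.76. The lymphoma spleens have high Lamc1 at marker means of 5.86 to 6.09.

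Node and spleen of the same mice were compared next. In asymptomatic mice 6 members were called higher in node than in spleen (background 3.36%) and 0 lower (2.26%). These were Col1a1 (1.11 ± 0.24, SE), Col1a2 (1.33 ± 0.31), Col3a1 (1.05 ± 0.29), Col4a1 (0.58 ± 0.17), Col6a3 (1.00 ± 0.24) and Lama4 (1.49 ± 0.38). All 6 calls were lost with the neighbouring-organ covariates and without the 8 nodes. Of the 15 fits with a mouse left out, the call was lost in 9 for Col4a1, 8 for Lama4, 7 for Col3a1, 4 for Col6a3, 3 for Col1a2 and 2 for Col1a1. With the mouse as a block, 20 members were called higher in node (10.1%) and 0 lower (9.68%), among them 8 laminin chains.

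The blocked differences in asymptomatic mice were largest for Lama4, at 2.45 ± 0.34 (SE, adjusted p = 0.000149), and Col1a2, at 1.94 ± 0.25 (adjusted p = 8.33e-05). Within a mouse, Col1a2 in node minus spleen was -0.27, 0.80 and 1.67 (lowest, median, highest) in lymphoma, 0.87, 2.06 and 2.52 in asymptomatic and 0.47, 1.73 and 2.00 in FVB/N mice. Lama4 gave -0.49, 0.63 and 1.11 in lymphoma, 0.86, 2.74 and 3.52 in asymptomatic and 0.32, 2.41 and 2.64 in FVB/N mice. Each gene was higher in node in 5 of 6 lymphoma, 6 of 6 asymptomatic and 3 of 3 FVB/N mice. Without the 8 nodes with neighbouring-organ transcripts, 0 members were called by limma in asymptomatic mice (0.572% of all genes higher and 0.401% lower) and 11 (20.4%) had an unadjusted p under 0.05, against 12.3% of all genes; 1 asymptomatic node then remained.

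In FVB/N mice 0 members were called between node and spleen by limma (background 2.14% higher and 2.13% lower) and 1 (1.85%) had an unadjusted p under 0.05, against 16.8% of all genes. With the mouse as a block, 9 were called higher in node (4.41%) and 0 lower (3.64%), which were Col1a1, Col1a2, Col6a1, Col6a2, Lama2, Lama3, Lama4, Lama5 and Lamb2. In lymphoma mice 0 members were called (0% higher and 0.0552% lower), with 14 (25.9%) at an unadjusted p under 0.05, against 8.33% of all genes. With the mouse as a block 0 were called there as well, with 9 (16.7%) at an unadjusted p under 0.05, against 6.18% of all genes.

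Whether the difference of lymphoma from asymptomatic mice depends on the tissue was tested as an interaction. With surrogate variables, limma called 0 members (background 0.256% higher and 0.316% lower), with 1 (1.85%) at an unadjusted p under 0.05, against 11.7% of all genes. With the mouse as a block, 0 members were called higher (1.89%) and 7 lower (4.03%), the sign meaning that node changed less upward or more downward than spleen. These were Lamb2 (-1.60, adjusted p = 0.00538), Lama2 (-0.98, adjusted p = 0.0276), Lama4 (-1.94, adjusted p = 0.0276), Col4a1 (-0.81, adjusted p = 0.0322), Lama3 (-0.76, adjusted p = 0.0351), Lamb1 (-1.35, adjusted p = 0.0392) and Col6a3 (-0.74, adjusted p = 0.0442). Without the 8 nodes limma called 0, with 3 (5.56%) at an unadjusted p under 0.05, against 6.54% of all genes.

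Companion genes of the collagens and laminins were read from lists by role. Of the nodes compared, 5 of 6 asymptomatic and 1 of 6 lymphoma nodes carried neighbouring-organ transcripts, whose part in these lists was not tested. Fitted differences can depart in size from those of the measured means, as for Timp3 and Mmp9 below. Of 24 measured genes that process collagen, 1 was called higher (background 11.6%) and 5 lower (12.5%) in lymphoma than in asymptomatic nodes. Adamts14, which trims the amino end of procollagen, averaged 6.41 ± 0.17 in lymphoma and 6.86 ± 0.21 in asymptomatic nodes (SD, n = 6 each), with a fitted difference of -0.65 (adjusted p = 3.03e-05), and fell in spleen as well (-0.59, adjusted p = 4.22e-05). Plod1, a collagen lysyl hydroxylase, averaged 7.30 ± 0.29 in lymphoma and 8.90 ± 0.72 in asymptomatic nodes (-1.12, adjusted p = 0.000242). P4hb, a subunit of prolyl hydroxylase, was called higher (0.73, adjusted p = 0.00111) although its measured means were 10.10 in lymphoma and 10.18 in asymptomatic nodes, and its difference was -0.08 with batch as a term. In spleen, 0 genes of the list were called higher (8.58%) and 1, Adamts14, lower (7.25%). Over the 24 genes the median fitted difference was -0.25 in node and -0.09 in spleen.

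Of 27 matrix partners and proteases, 3 were called higher (background 11.6%) and 9 lower (12.5%) in lymphoma nodes, and 2 higher (8.58%) and 2 lower (7.25%) in lymphoma spleens, the spleen counts being near the background. Timp3, an inhibitor of matrix proteases, averaged 5.76 ± 0.51 in lymphoma and 8.78 ± 0.73 in asymptomatic nodes (SD, fitted difference -1.54, adjusted p = 7.95e-06). Timp2, of the same family, averaged 7.21 ± 0.84 in lymphoma and 10.04 ± 0.35 in asymptomatic nodes (-2.13, adjusted p = 1.61e-05), and 7.15 ± 0.82 in lymphoma and 8.58 ± 0.27 in asymptomatic spleens (-1.25, adjusted p = 0.00256). Mmp9, a gelatinase, averaged 8.50 ± 1.10 in lymphoma and 6.99 ± 0.32 in asymptomatic nodes (2.62, adjusted p = 0.000172). Nid2, the nidogen that links laminin to type IV collagen, averaged 7.67 ± 0.53 in lymphoma and 6.30 ± 0.16 in asymptomatic spleens, which did not overlap (1.31, adjusted p = 0.00179). The list's median fitted difference was -0.52 in node and -0.18 in spleen.

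Of 16 collagen and laminin receptors, 2 were called higher (background 11.6%) and 5 lower (12.5%) in lymphoma nodes, and 3 higher (8.58%) and 3 lower (7.25%) in lymphoma spleens. Itga6, the alpha subunit of laminin-binding integrins, averaged 7.77 ± 0.32 in lymphoma and 9.16 ± 0.40 in asymptomatic nodes (SD, fitted difference -1.65, adjusted p = 6.8e-09), and 7.94 ± 0.32 in lymphoma and 9.04 ± 0.24 in asymptomatic spleens (-0.80, adjusted p = 4.62e-05). Lair1, an inhibitory collagen receptor of leukocytes, averaged 6.58 ± 0.48 in lymphoma and 8.29 ± 0.35 in asymptomatic nodes (-1.32, adjusted p = 0.000102). Itga7, another laminin-binding subunit, averaged 6.14 ± 0.24 in lymphoma and 6.98 ± 0.51 in asymptomatic nodes (-1.12, adjusted p = 7.9e-05). Ddr1, a collagen-binding receptor kinase, averaged 6.37 ± 0.28 in lymphoma and 7.37 ± 0.22 in asymptomatic spleens (-0.90, adjusted p = 0.00143). Itga1, the collagen-binding alpha-1 subunit, averaged 7.65 ± 1.09 in lymphoma and 6.03 ± 0.24 in asymptomatic spleens (2.42, adjusted p = 3.15e-05), and 1.63 was its difference with batch as a term. T cell markers, which move with the lymphoma groups, averaged 6.81 to 8.39 in lymphoma and 10.15 to 10.39 in asymptomatic spleens, and their part in the receptor results was not tested.

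In asymptomatic mice, 3 of the 24 processing genes, 11 of the 27 partners and proteases and 4 of the 16 receptors were called higher in node than in spleen (background 3.36%), and 1 partner, the neutrophil collagenase Mmp8, was called lower (2.26%). Of the 6 asymptomatic nodes, 5 carried neighbouring-organ transcripts, and without the 8 carrying nodes 0.572% of all genes were called higher in node. Timp3 averaged 8.78 ± 0.73 in node and 5.54 ± 0.26 in spleen (SD, n = 6 each, fitted difference 1.91, adjusted p = 4.48e-05). Dcn, decorin, which binds type I collagen fibrils and is also one of the fibroblast markers, averaged 11.16 ± 0.81 in node and 5.36 ± 0.31 in spleen (4.61, adjusted p = 0.00116). Ddr2, a receptor kinase for fibrillar collagen, averaged 7.98 ± 0.82 in node and 5.58 ± 0.09 in spleen (1.42, adjusted p = 0.00743).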

How the data were processed

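The deposited table holds log2 expression values, which the authors made by probe-level fRMA normalization, per the series design text; versions and the genome build of that step are not given in the sources used here. It has 35557 probe sets, of which 21789 name 1 gene; the highest-mean probe set per gene gave 19938 genes. The test was limma 3.58.1 in R 4.3.3 on all 30 arrays, with 6 group means and 6 surrogate variables (5 iterations, number from 20 permutations at a p limit of 0.1), Benjamini-Hochberg adjustment over all genes and no filter on dim genes. The code was tested on simulated data. Members, lists and tests were chosen with earlier results of these data known. Values per array are given for the 4 members per class with the smallest adjusted p between lymphoma and asymptomatic mice, the highest-mean members, and members called against FVB/N in spleen; others are marked where described. Companion genes are at most 3 per list and comparison.

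The number of arrays limits the precision. Node and spleen of 1 mouse are paired by animal: their deviations from the group means correlated at -0.01 to 0.68 (median 0.33, 12 of 15 mice over 0.1). None of the FVB/N mice was over 0.1, as they lay at -0.0144, -0.0036 and 0.0516. Mice with the same number in the lymphoma and asymptomatic groups correlated at 0.23 to 0.50 in spleen. All 6 pairs were over 0.1 and 2 of 6 correlated best with their own number. Such mice are different animals that share a batch, so these correlations cannot show a pairing by number. Alternatives were no surrogate variables, batch as a term, each batch alone, neighbouring-organ covariates, nodes left out, centring, quantile normalization, a dim-gene filter, the mean over probe sets, mouse blocks and each mouse left out.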

Additional observations from a re-analysis of the deposited data

Results flagged for a closer look

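A single array stood apart from the rest of its group, by Dixon's limit, in 6 of 76 groups tested over 19 members; chance flags about 1 in 20 groups. Col6a4 was 7.52 log2 units in the spleen of asymptomatic mouse 6, above the other 5. Lama3 was 6.01 in the node of asymptomatic mouse 1, below the others, and 5.31 in the spleen of lymphoma mouse 5, below the others. Lamb1 was 5.93 in the node of lymphoma mouse 2, below the others. Lamb3 was 7.51 in the node and 7.09 in the spleen of lymphoma mouse 5, above the others in both tissues.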

How the results depend on the processing

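Counts of members called are given here for each alternative that moved one by over 1.5 times. Shares of all genes called moved as well with batch as a term. Lymphoma against asymptomatic nodes went from 24.1% to 32.8%, and lymphoma against FVB/N nodes from 16.6% to 22.5%. Node against spleen went from 5.62% to 16.1% in asymptomatic and from 4.27% to 6.23% in FVB/N mice. The tissue dependence went from 0.572% to 3.99%. The share fell between asymptomatic and FVB/N mice in both tissues and between lymphoma nodes and spleens. In lymphoma against asymptomatic nodes 5 members were called, against 20 with no surrogate variables, 20 with batch as a term, 16 with the dim-gene filter, 21 with the number as a replicate block, 3 after quantile normalization, 3 with batch and neighbouring-organ covariates, 2 within batch A, 17 within batch B and 1 to 9 with a mouse left out. In spleen 3 were called, against 5 with median centring, 5 with the dim-gene filter, 5 without the carrying nodes, 5 with the spleen arrays alone (chosen after seeing the data) and 3 to 7 with a mouse left out. In lymphoma against FVB/N nodes 4 became 14 with no surrogate variables, 11 with batch, 8 with the filter, 13 with the replicate block, 2 within batch A and 2 to 5 with a mouse left out. In spleen 2 became 4 with no surrogate variables, 4 with the filter, 4 with the covariates, 5 without the carrying nodes, 5 with the spleen arrays alone and 2 to 5 with a mouse left out. In asymptomatic against FVB/N spleens 1 became 0 with the replicate block and 0 within batch A, and stayed at 1 with each mouse left out; in node 0 became 3 without the array with the conflicting code (chosen after seeing the data) and 0 to 3 with a mouse left out. Between node and spleen of asymptomatic mice 6 became 20 with no surrogate variables, 20 with batch, 13 with the filter, 20 with the mouse as a replicate block, 19 within batch B, 0 with the covariates, 0 without the carrying nodes and 0 to 9 with a mouse left out. In FVB/N mice 0 became 7, 7, 3, 9 and 4 with no surrogate variables, batch, the filter, the replicate block and batch A alone, and stayed at 0 with a mouse left out; in lymphoma mice 0 became 0 to 4. The tissue dependence had 0 calls, 5 with no surrogate variables, 6 with batch, 7 with the replicate block, 4 within batch B and 0 to 1 with a mouse left out. Without asymptomatic mouse 4, 1 member was called higher and 0 lower in lymphoma nodes. The Lamb1 node difference reversed to 0.0657 with the covariates. No count moved by over 1.5 times with the mouse as a random block or the mean over probe sets. Apart from the fits with a mouse left out, 87 of the alternative counts stayed within that limit while 41 did not. The dim-gene filter kept 36 of the 54 members, so its counts are out of 36. Same-numbered mice in node correlated at 0.08 to 0.24, with 4 of 6 pairs over 0.1 and 1 best with its own number. The number is not taken as a pairing in either tissue, and the fits with it as a block are alternatives only. The cause of these shifts was not tested. With 1 asymptomatic and 1 FVB/N node under the limit for neighbouring-organ transcripts, node differences among the states rest on few arrays.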
